A study of Rattus norvegicus with 84 samples.

Results

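Microglia, the resident macrophages of the brain, were followed here through 9 genes that mark their resting state: Cx3cr1, P2ry12, Tmem119, Csf1r, Gpr34, Selplg, Aif1, Itgam and Siglec5. They were chosen by name as markers of resting microglia and taken by symbol from the deposited tables. A row was found for 8 of the 9, among 15109 genes with a row in all 3 tables, and Itgam was not analysed here. All 8 were high enough to be tested in every subregion. RNA selected by its polyA tail was sequenced from hippocampal CA1, CA3 and dentate gyrus (DG), 1 hemisphere each of 28 male F344 rats, 84 libraries in all. The rats were 12 young animals of 5 months and 16 middle-aged animals of 12 months, and the labels give no treatment or genotype other than the strain. Each library came from a separate animal within its subregion, and the 3 libraries of a rat share that animal.

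Microglia survey the tissue with motile processes and depend on signals from neurons and other glia. Cx3cr1 receives fractalkine, the product of Cx3cl1, which neurons carry on their surface and shed, and Csf1r receives Csf1 and Il34, which keep microglia alive. P2ry12 senses ADP released from damaged cells and draws processes toward it, and Gpr34 is a receptor for lysophosphatidylserine. Selplg is the glycoprotein that selectins bind, Siglec5 is a sialic acid-binding lectin, Tmem119 is a membrane protein used to tell microglia from blood-derived macrophages, and Aif1 (Iba1) is a cytosolic actin-bundling protein by which microglia are commonly stained. Cx3cr1, P2ry12 and Tmem119 are known to fall when microglia leave the resting state, whereas Aif1 is known to increase with activation.

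Promoters are shown for 3 markers that differed in their age change: Gpr34, which rose in all 3 subregions, Cx3cr1, which rose in CA3, and Siglec5, which was called in no subregion. The sequences are those of RefSeq on build GRCr8, 250 bases before to 50 bases after the annotated start, 5′ to 3′ on the strand of the gene. Of the 9 markers, 5 had an entry. Capitals mark the core letters AGGAAG of the site of PU.1, the factor that specifies the myeloid lineage, and the letters TGTGGT bound by RUNX factors, each searched on both strands, so that the complements CTTCCT and ACCACA are capitals too.
Cx3cr1, chr8:128677017-128677316, minus strand: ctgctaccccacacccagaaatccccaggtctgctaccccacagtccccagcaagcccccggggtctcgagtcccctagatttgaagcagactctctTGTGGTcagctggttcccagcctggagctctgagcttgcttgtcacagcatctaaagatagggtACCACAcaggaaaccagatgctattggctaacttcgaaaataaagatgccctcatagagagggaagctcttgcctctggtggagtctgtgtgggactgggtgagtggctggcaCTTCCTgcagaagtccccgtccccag
Gpr34, chrX:11785787-11786086, minus strand: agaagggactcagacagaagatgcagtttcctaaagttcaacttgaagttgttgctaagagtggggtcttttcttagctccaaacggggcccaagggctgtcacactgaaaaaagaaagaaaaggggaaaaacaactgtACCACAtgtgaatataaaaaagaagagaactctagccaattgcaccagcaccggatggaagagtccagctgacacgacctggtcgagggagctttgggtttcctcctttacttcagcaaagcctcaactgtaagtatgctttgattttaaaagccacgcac
Siglec5, chr1:102904656-102904955, plus strand: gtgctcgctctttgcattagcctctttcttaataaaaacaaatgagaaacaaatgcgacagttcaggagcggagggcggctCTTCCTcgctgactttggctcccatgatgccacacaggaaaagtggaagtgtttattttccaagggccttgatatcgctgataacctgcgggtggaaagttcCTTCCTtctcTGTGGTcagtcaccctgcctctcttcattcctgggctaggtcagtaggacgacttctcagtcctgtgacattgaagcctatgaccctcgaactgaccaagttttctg
The Cx3cr1 promoter held 2 RUNX matches and 1 PU.1 core match, that of Gpr34 1 RUNX match, and that of Siglec5 2 PU.1 core matches and 1 RUNX match. Among 33469 RefSeq promoters of the same length, 34.5% held the PU.1 core and 17.3% the RUNX letters. The longer PU.1 letters GAGGAAGT, found in 2.42% of promoters and overlapping the core, were in none of the 3. These matches describe letters and not binding.

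Recovered reads ranged from 14447371 to 23363656 per library. Summed markers of CA1 pyramidal cells lay between 31867 and 63895 normalized counts in CA1 libraries and did not exceed 20107 in the others. The markers of DG granule cells lay between 7908 and 14190 in DG libraries and did not exceed 5936 in the others, and those of CA3 lay between 11401 and 15778 in CA3 and did not exceed 9531 elsewhere. The mitochondrial share of reads was 8.54% ± 2.43 in young and 11.5% ± 1.81 in middle-aged CA1 (SD, n = 12 and 16). For CA3 it was 7.59% ± 1.56 in the young and 9.04% ± 1.36 in the older rats, and for the DG 7.06% ± 2.64 against 7.96% ± 1.26. Its mean over all rats thus moved with age, though not alike in the 2 runs of animal numbers described below. The part of this share in the marker differences was not tested. The animal numbers in the labels were set in 2 runs. The first run holds 16 rats with consecutive numbers, 6 of them young, and the second run 12, 6 of them young. In the second run the young and the middle-aged rats have separate blocks of numbers, so age and block cannot be told apart there. The mitochondrial share of CA1 reads in that run was 5.22% to 7.72% in young and 11.1% to 13.2% in middle-aged rats. In CA1 of the first run young rats ran from 8.20% to 13.6%, and the lowest middle-aged rat was at 8.31%. For CA3 the young and middle-aged ranges were 5.23% to 8.08% and 7.96% to 13.1% (second run), 7.19% to 9.77% and 7.90% to 10.1% (first). For the DG they were 3.67% to 7.03% and 6.62% to 9.62% (second run), 6.49% to 12.6% and 6.35% to 9.94% (first). In bulk RNA, a change in the number of microglia and a change in RNA per cell cannot be told apart.

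The libraries of 1 rat stood apart before any comparison of age. In middle-aged replicate 10, of the first run, 7 of the 8 markers were the highest of all CA1 libraries. Csf1r was at 7222 normalized counts in its CA1 library, where the other middle-aged rats reached at most 2944. Aif1 was at 2376 in that library against at most 480 in the others, which is 7.14 times their median. Siglec5 went the other way, at 80.5, or 0.68 times the median of the other middle-aged rats.
The same rat was high in CA3, with Csf1r at 5470 (at most 2836 in the others), Aif1 at 1554 (at most 418) and Siglec5 at 64.5, the lowest CA3 value. In the DG it was milder: Csf1r was 1.70 times and Aif1 1.54 times the median of the other middle-aged rats. Cd74, the invariant chain of MHC class II, stood at 31732, 25188 and 3266 in the CA1, CA3 and DG libraries of this rat, and the class II chain RT1-Da at 10541, 8368 and 907, the latter gene being named after its values were seen. Resting markers and antigen presentation genes were thus high in the same CA1 and CA3 libraries. Averaged over all tested genes, its distance from the group medians was second largest of 16 middle-aged rats for CA1, the third for CA3 and the eighth for the DG. The counts and called age differences of the markers are given with and without this rat.

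**Figure D1:**
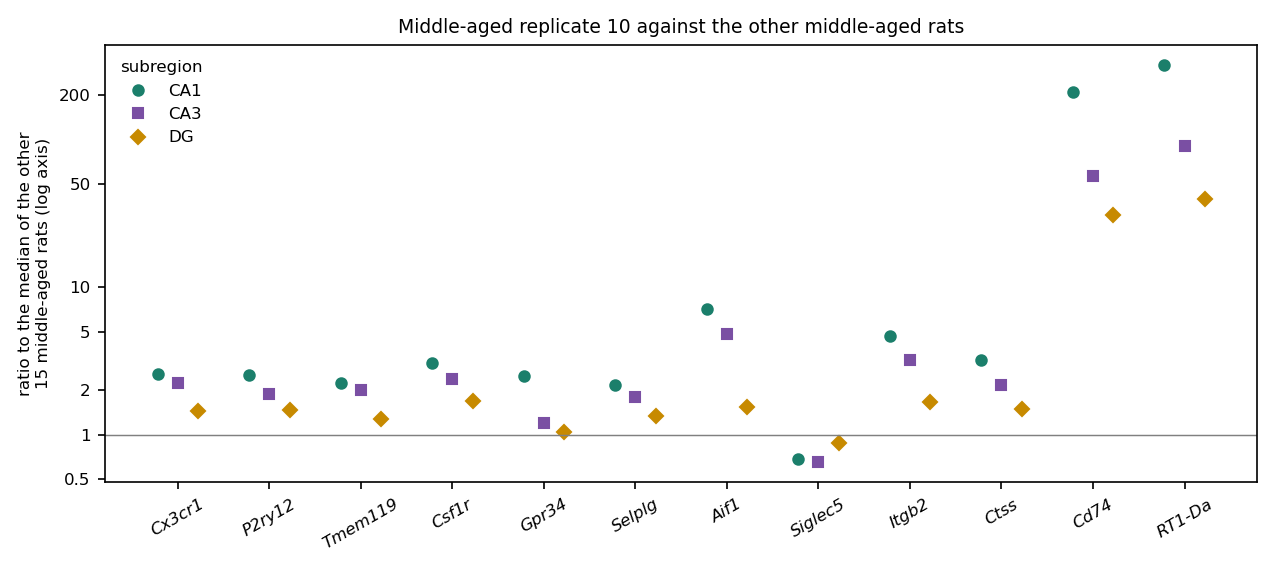
Ratio of middle-aged replicate 10 to the median of the other 15 middle-aged rats (vertical log axis) for the 8 markers and 4 further genes (horizontal axis), 1 point per subregion. Aif1 reached 7.14 in CA1, Siglec5 lay below 1 in every subregion, and Cd74 and RT1-Da were the highest of the genes plotted.

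Across subregions the medians of all 8 markers were highest in CA1 and, except for Tmem119 and Selplg at 5 months, lowest in the DG. Levels are given for this as CPM, the recovered reads of a gene scaled to the total of its library, because the 3 tables were normalized separately, and they are a description without a test. Csf1r had medians of 136 CPM in young and 140 in middle-aged CA1. The CA3 medians were 116 and 124, and those of the DG 108 and 97.7. Tmem119 had young and middle-aged medians of 37.6 and 42.3 CPM (CA1), 31.3 and 38.9 (CA3) and 31.6 and 31.0 (DG). Cx3cr1 had 34.1 and 36.1 (CA1), 27.2 and 32.3 (CA3) and 26.8 and 25.5 (DG). For these 3 genes the young CA3 and DG medians were therefore close, and CA3 lay further above the DG at 12 months.
Within rats, CA1 exceeded the DG in 28 of 28 rats for Tmem119, in 27 for Cx3cr1, P2ry12 and Selplg, in 26 for Csf1r, in 25 for Aif1 and Siglec5 and in 22 for Gpr34. The median ratio of CA1 to DG ran from 1.29 for Selplg to 1.502 for Aif1. CA3 exceeded the DG in 17 rats for Selplg up to 27 for Aif1, with median ratios from 1.07 to 1.33. CA1 exceeded CA3 in 15 rats for Gpr34, in 16 for Aif1 and in 23 for Tmem119, Selplg and Siglec5. Despite this order within rats, the ranges over rats of CA1, CA3 and DG overlapped for all 8 markers at both ages. Levels of different genes were not compared, because the files give no gene lengths.

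**Figure D2:**
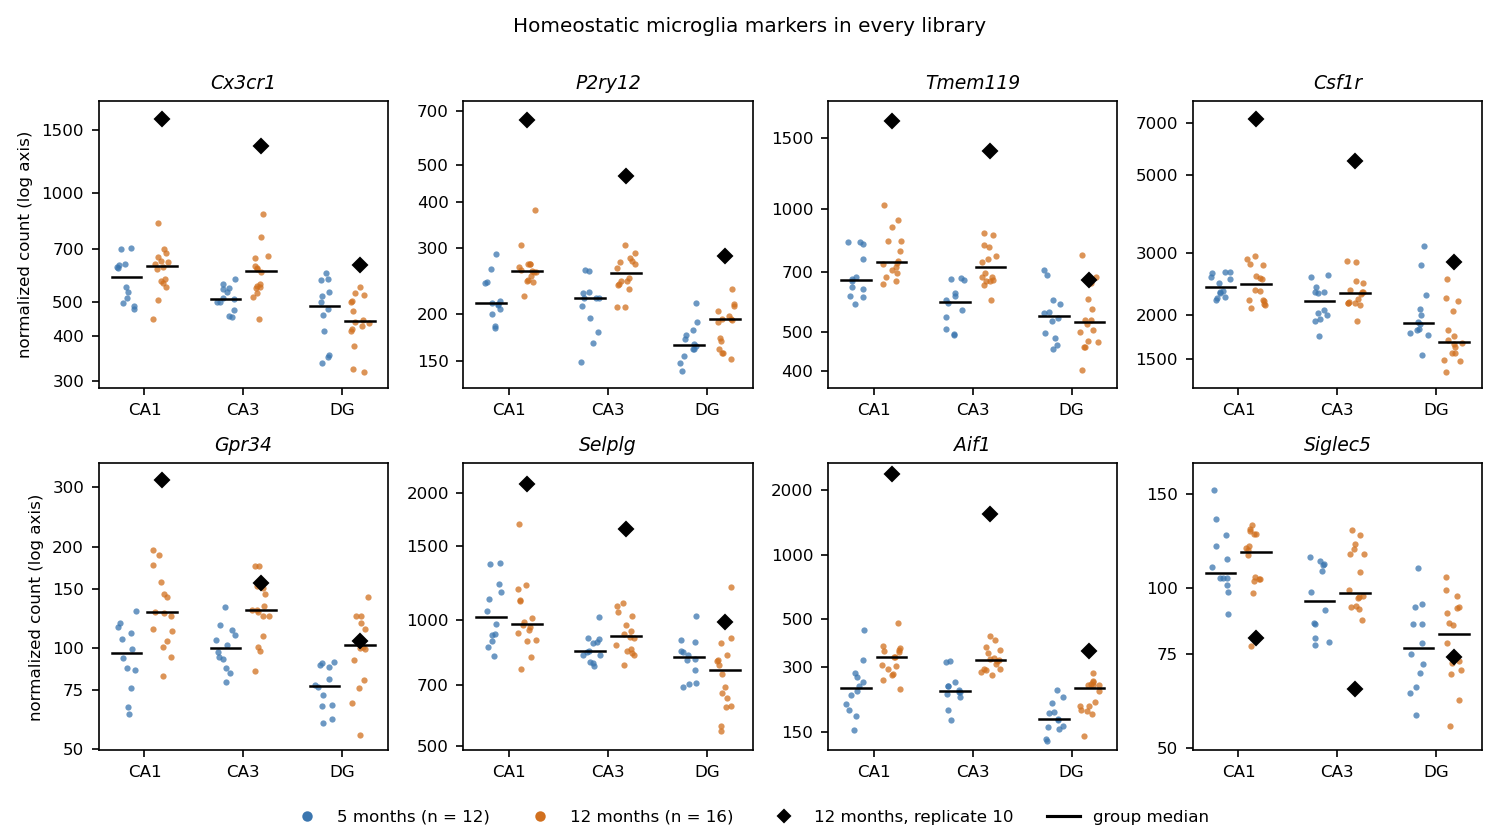
Normalized count (vertical log axis, its range set for each gene) of each marker in every library, by subregion and age, with 12 young and 16 middle-aged rats. Horizontal lines are group medians and the diamond is middle-aged replicate 10. Young and middle-aged ranges overlap in every panel, and the medians of Gpr34 and Aif1 are higher at 12 months in all 3 subregions.

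Between 5 and 12 months the resting markers separated into genes that rose and genes without a called change. Gpr34 and Aif1 rose in all 3 subregions, P2ry12 in CA1 and CA3, and Tmem119 and Cx3cr1 in CA3, by 1.24- to 1.53-fold (limma on log2 of the normalized count plus 1, Benjamini-Hochberg over all genes tested, adjusted p below 0.05). Csf1r, Selplg and Siglec5 were called in no subregion. CA1 had 3 of 8 markers called higher, against 12.4% of all genes tested. CA3 had 5 of 8, against 10.9%. The DG had 2 of 8, against 18.5%. No marker was called lower, or had an unadjusted p under 0.05 in that direction, by limma in any subregion or on average, where the share of all genes called lower was 12.8% for CA1, 10.8% for CA3, 18.5% for the DG and 24.6% on average. The median log2 fold change of the 8 was 0.20, 0.32 and 0.01 for CA1, CA3 and the DG, beside medians over all genes of 0.00, 0.00 and 0.01. For the mean of a rat's 3 subregions, 4 of 8 were called higher, against 25.4% of all genes. The 3 subregions come from the same rats and are not separate evidence. edgeR and DESeq2 on the recovered reads called 3, 5 and 2 markers higher and 0 lower in CA1, CA3 and the DG as well. Without middle-aged replicate 10 the medians of the 8 were 0.12, 0.26 and 0.01, and the counts were again 3, 5, 2 and 4, beside 11.2%, 10.2%, 18.3% and 25.3% of all genes called higher.

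**Figure D3:**
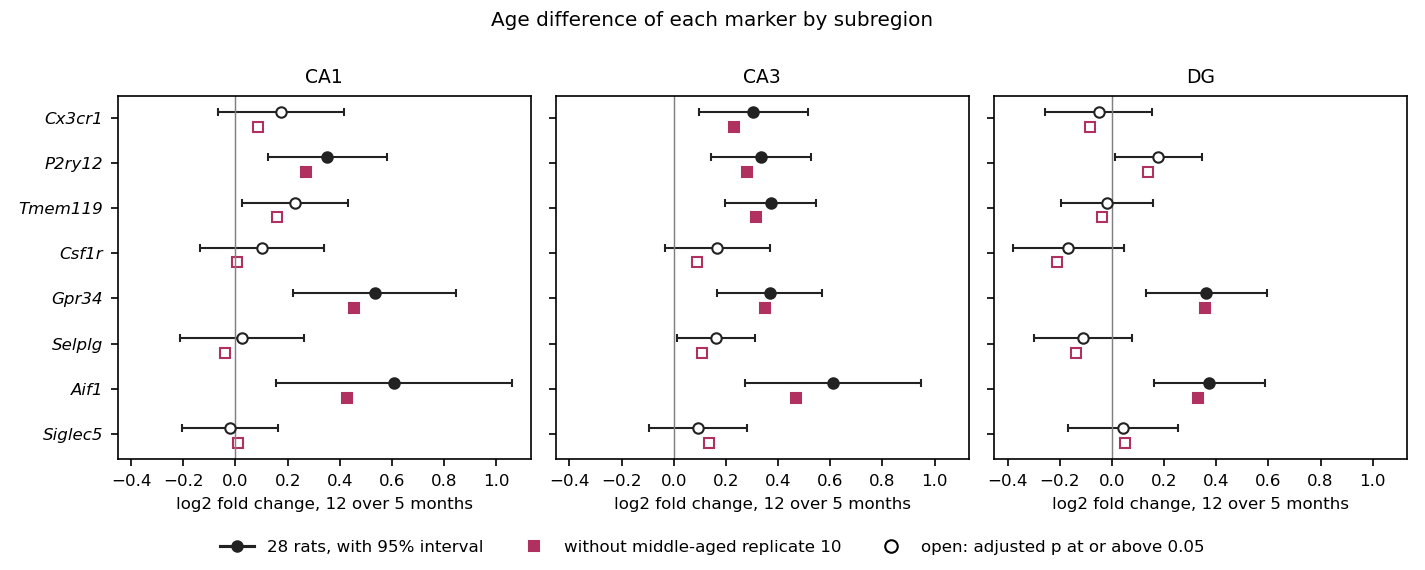
Log2 fold change from 5 to 12 months (horizontal axis) of each marker (vertical axis) in CA1, CA3 and the DG. Circles are the 28 rats with 95% intervals, squares the fit without middle-aged replicate 10, and filled symbols have an adjusted p under 0.05. The same symbols are filled in both fits, and Csf1r, Selplg and Siglec5 are open in all 3 panels.

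Of the receptors for neuronal and growth factor signals, Cx3cr1 moved in CA3. Its normalized counts there ran from 452 to 576 (median 510) in young rats and from 447 to 1354 (median 610) in middle-aged rats, and 15 of 16 middle-aged rats lay above the young median. The log2 fold change was 0.31 ± 0.10 (SE, n = 12 and 16; 1.24-fold, adjusted p = 0.0313), and 0.23 without replicate 10 (adjusted p = 0.0206). Without young replicate 7 the adjusted p was 0.0551. In CA1 the young rats ran from 476 to 703 (median 584) and the middle-aged from 448 to 1613 (median 629), a difference of 0.18 ± 0.12 (adjusted p = 0.279), or 0.09 without replicate 10 (adjusted p = 0.432). In the DG they ran from 337 to 600 (median 487) and from 319 to 633 (median 442), a difference of -0.05 ± 0.10 (adjusted p = 0.719). The groups overlapped in all 3 subregions.

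Csf1r, the receptor on which microglial survival depends, was called in none. CA1 values were 2195 to 2651 (median 2400) in young and 2093 to 7222 (median 2438) in middle-aged rats, where the second highest was 2944. CA3 values were 1735 to 2589 (median 2187) and 1919 to 5470 (median 2302). DG values were 1538 to 3127 (median 1891) and 1371 to 2826 (median 1676), and 5 of 16 middle-aged rats lay above the young median. The log2 differences were 0.10 ± 0.12 (adjusted p = 0.537), 0.17 ± 0.10 (adjusted p = 0.232) and -0.17 ± 0.10 (adjusted p = 0.208). Their 95% intervals were -0.13 to 0.34, -0.03 to 0.37 and -0.38 to 0.05, so these numbers of rats leave room for moderate changes. Without replicate 10 the CA1 difference was 0.01.

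Among the receptors for nucleotide and lipid signals, P2ry12 rose in the pyramidal subregions. In CA1 it ran from 184 to 289 (median 214) in young and from 224 to 662 (median 262) in middle-aged rats, and all 16 of the latter lay above the young median. In CA3 it ran from 150 to 263 (median 221) and from 209 to 469 (median 258). The log2 fold change was 0.35 ± 0.11 in CA1 (1.28-fold, adjusted p = 0.0223) and 0.34 ± 0.09 in CA3 (1.26-fold, adjusted p = 0.0115). The DG values, 141 to 214 (median 165) and 152 to 285 (median 194), gave 0.18 ± 0.08 (adjusted p = 0.0862), and this passed the threshold only without young replicate 11 (adjusted p = 0.0468) among fits that each left out 1 rat. Replicate 10 was the highest middle-aged library in all 3 subregions, and without it the 3 values were 0.27 (adjusted p = 0.0121), 0.28 (adjusted p = 0.0112) and 0.14 (adjusted p = 0.137).

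Gpr34 rose in every subregion. Its reads were few, from 48 to 290 per library. CA1 values were 63.4 to 128 (median 96.5) in young and 82.3 to 316 (median 128) in middle-aged rats. CA3 values were 79.4 to 132 (median 99.6) and 85.2 to 176 (median 130). DG values were 59.6 to 90.8 (median 77.0) and 55.1 to 142 (median 102), and 12 of 16 middle-aged rats exceeded every young rat. Log2 fold changes for CA1, then CA3, then the DG were 0.53 ± 0.15 (1.45-fold, adjusted p = 0.0126), 0.37 ± 0.10 (1.29-fold, adjusted p = 0.00871) and 0.36 ± 0.11 (1.29-fold, adjusted p = 0.014). Without replicate 10 they were 0.45 (adjusted p = 0.0153), 0.35 (adjusted p = 0.0132) and 0.36 (adjusted p = 0.0188). On average over subregions it rose by 0.42 ± 0.09 (adjusted p = 0.000231), and by 0.39 without replicate 10 (adjusted p = 0.000293).

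The selectin ligand Selplg and the lectin Siglec5 showed no called change. Selplg ran from 821 to 1364 (median 1014) in young and from 763 to 2105 (median 980) in middle-aged CA1, from 777 to 1014 (median 842) and 780 to 1642 (median 917) in CA3, and from 693 to 1023 (median 816) and 543 to 1198 (median 761) in the DG. Its DG values spread downward at 12 months, with 7 of 16 middle-aged rats below every young rat. The differences were 0.03 ± 0.12 (adjusted p = 0.893), 0.16 ± 0.07 (adjusted p = 0.114) and -0.11 ± 0.09 (adjusted p = 0.358). Siglec5 ran from 89.4 to 153 (median 107) and 77.9 to 131 (median 117) in CA1, from 78.02 to 114 (median 94.3) and 64.5 to 128 (median 97.8) in CA3, and from 57.7 to 109 (median 76.9) and 54.9 to 105 (median 82.0) in the DG. The ages overlapped almost fully, with differences of -0.02 ± 0.09 (adjusted p = 0.889), 0.09 ± 0.09 (adjusted p = 0.504) and 0.04 ± 0.10 (adjusted p = 0.777).

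Tmem119 rose in CA3, where all 16 middle-aged rats lay above the young median. The CA3 values were 492 to 679 (median 592) in young and 600 to 1393 (median 720) in middle-aged rats, a log2 fold change of 0.37 ± 0.09 (1.29-fold, adjusted p = 0.00314) and of 0.31 without replicate 10 (adjusted p = 0.00126). In CA1 the values were 586 to 832 (median 670) and 656 to 1647 (median 743), a difference of 0.23 ± 0.10 (adjusted p = 0.088). In the DG they were 454 to 711 (median 548) and 404 to 772 (median 529), a difference of -0.02 ± 0.09 (adjusted p = 0.884).

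Aif1 rose in all 3 subregions as well. CA1 values were 153 to 446 (median 238) in young and 238 to 2376 (median 333) in middle-aged rats. CA3 values were 170 to 318 (median 232) and 274 to 1554 (median 325), and all 16 middle-aged rats lay above the young median. DG values were 136 to 233 (median 172) and 143 to 358 (median 239). The log2 fold changes were 0.61 ± 0.22 in CA1 (1.52-fold, adjusted p = 0.0425), 0.61 ± 0.17 in CA3 (1.53-fold, adjusted p = 0.00911) and 0.37 ± 0.10 in the DG (1.29-fold, adjusted p = 0.00667). Replicate 10 widened the spread: without it the values were 0.43 ± 0.12 (adjusted p = 0.0138), 0.47 ± 0.08 (adjusted p = 0.000447) and 0.33 ± 0.10 (adjusted p = 0.00966). The CA1 call was lost in 13 of the 28 fits that each left out 1 rat, namely young replicates 1, 2, 3, 7, 8, 11 and 12 and middle-aged replicates 2, 3, 9, 12, 15 and 16, with adjusted p from 0.0501 to 0.081, all of them fits that kept replicate 10.

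Tmem119 was the marker whose age difference was called as lower in the DG than in CA3. Its difference of log2 fold changes within rats, DG minus CA3, was -0.39 ± 0.10 (SE, adjusted p = 0.0323) and -0.35 ± 0.09 without replicate 10 (adjusted p = 0.0472). The call was 1 of 8 markers, beside 2.73% of all genes called in either direction, and it was lost without young replicate 3, 6, 7, 8 or 11 (adjusted p from 0.0526 to 0.0671). All 8 differences were negative in sign, from -0.39 to -0.01 with a median of -0.25. Cx3cr1 had -0.36 ± 0.11 (adjusted p = 0.0741) and Csf1r -0.33 ± 0.12 (adjusted p = 0.116). Cx3cr1 was called without young replicate 2 (adjusted p = 0.0338) or 4 (adjusted p = 0.042) or middle-aged replicate 4 (adjusted p = 0.0457), and Csf1r without young replicate 2 (adjusted p = 0.0409). Gpr34, at -0.01 ± 0.12 (95% interval -0.26 to 0.24), had the smallest difference.
DG minus CA1 gave no called marker by limma, with 2 of 8 at an unadjusted p under 0.05, beside 0.607% of all genes called. CA3 minus CA1 gave none either, with 0 of 8 at an unadjusted p under 0.05, beside 0% of all genes. The CA1 to CA3 intervals still allowed differences of some size, -0.12 to 0.25 for Csf1r and -0.46 to 0.13 for Gpr34. The DG contrasts share the DG libraries, and the CA3 contrasts share the CA3 libraries.

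The 2 runs of animal numbers gave different numbers of calls. With limma in the first run alone, no marker was called in CA1, CA3 or the DG, with 2, 3 and 0 of 8 at an unadjusted p under 0.05, beside 1.68%, 2.11% and 0.145% of all genes called higher. On average over subregions the first run called Gpr34 (0.48 ± 0.13, adjusted p = 0.019), beside 8.54% of all genes. In the second run alone, Aif1 was called higher in CA1 (0.65 ± 0.13, adjusted p = 0.00165), beside 16.8% of all genes. In CA3 the second run called Aif1, Gpr34, P2ry12, Selplg and Tmem119 higher, from 0.23 for Selplg to 0.73 for Aif1, beside 8.43% of all genes.
In the DG the second run called Aif1 (0.49 ± 0.13) and Gpr34 (0.41 ± 0.14) higher, beside 23.9% of all genes, and 3 markers lower, beside 23% of all genes. Those were Csf1r (-0.30 ± 0.06, adjusted p = 0.00141), Cx3cr1 (-0.28 ± 0.11, adjusted p = 0.041) and Selplg (-0.27 ± 0.10, adjusted p = 0.0291). The first-run DG values of the same genes, by limma, were -0.10 ± 0.16, 0.15 ± 0.14 and -0.03 ± 0.12. On average the second run called 4 markers, beside 29.1% of all genes.
The difference between runs was itself tested by limma, and no marker passed it in CA1, CA3, the DG or on average, with 0, 1, 1 and 1 of 8 at an unadjusted p under 0.05, beside 3.24%, 0.577%, 6.15% and 14.5% of all genes. Gpr34, Aif1 and P2ry12 had positive values in both runs in all 3 subregions. The labels do not say what separates the runs, or the blocks of numbers of the young and middle-aged rats within the second.

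**Figure D4:**
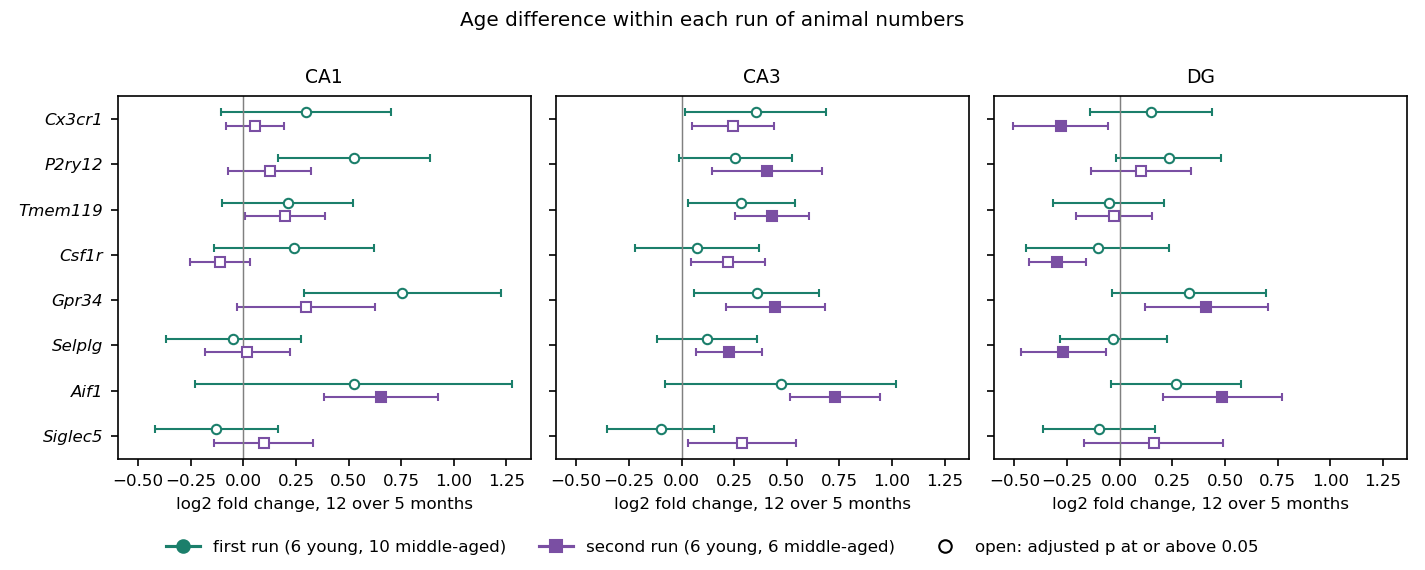
Log2 fold change from 5 to 12 months (horizontal axis, with 95% intervals) of each marker (vertical axis) within the first run (circles, 6 and 10 rats of 5 and 12 months) and the second run (squares, 6 and 6). Filled symbols have an adjusted p under 0.05. In the DG of the second run Csf1r, Cx3cr1 and Selplg lie at -0.30, -0.28 and -0.27 while Aif1 and Gpr34 lie at 0.49 and 0.41.

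Each marker was then set against the rest of the microglial transcripts of its own library. The reference was the mean log2 value of 47 other microglial genes, a measure that was added after the data were seen and is described without a test. Some of the 47, such as Scoc, are expressed by other brain cells too. This mean was higher at 12 months by 0.18, 0.17 and 0.04 (differences of medians, for CA1, CA3 and the DG). Relative to it, Aif1 was above the young median in 14, 16 and 14 of 16 middle-aged rats in CA1, CA3 and the DG, by 0.28, 0.25 and 0.30. Gpr34 was above in 10, 10 and 13 rats, by 0.25, 0.19 and 0.40, though by 0.08 in CA3 when means were compared. P2ry12 was above in 12, 10 and 13 rats, by 0.09, 0.03 and 0.09. Tmem119 was above in 8, 10 and 4 rats, with 0.00, 0.06 and -0.03. Siglec5 was above in 3, 5 and 10 rats, with -0.14, -0.10 and 0.14, though with -0.02 in the DG when means were compared.
Csf1r was below the young median in 15, 14 and 13 of 16 rats, by medians of -0.21, -0.10 and -0.22, and Selplg in 14, 12 and 13 rats, by -0.29, -0.07 and -0.21. Cx3cr1 was below it in 15 of 16 rats in the DG (-0.18) and in 9 and 8 rats in CA1 and CA3. The markers thus lay on both sides of the other microglial genes, and whether they differ from each other in this was not tested.

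**Figure D5:**
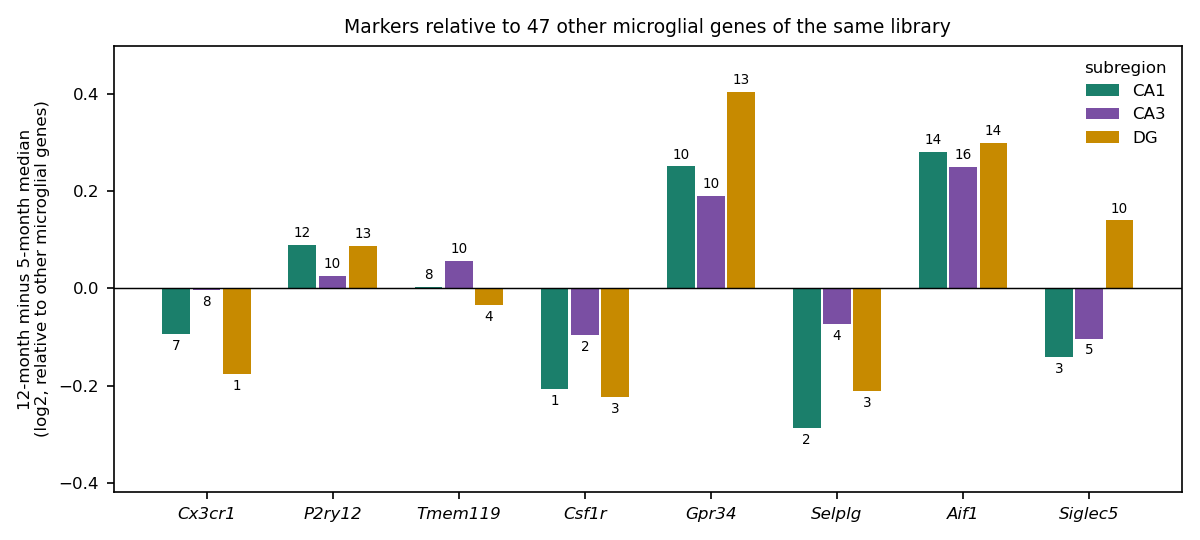
Difference between the 12-month and 5-month medians (vertical axis, log2, after subtracting the mean of 47 other microglial genes of the same library) for each marker and subregion. Numbers give how many of 16 middle-aged rats lay above the young median. Aif1, Gpr34 and P2ry12 are above 0 and Csf1r and Selplg below 0 in all 3 subregions.

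Among the partners of these receptors, the fractalkine gene Cx3cl1 fell in all 3 subregions. It ran from 12083 to 18568 (median 13100) normalized counts in young and from 9838 to 14950 (median 10902) in middle-aged CA1, and 11 of 16 middle-aged rats lay below every young rat. In CA3 it ran from 7697 to 10638 (median 8488) and 6396 to 8605 (median 7558), and in the DG from 11766 to 14201 (median 12790) and 8375 to 13644 (median 10412), with 13 of 16 below every young rat. Cx3cl1 fell by 0.31 on the log2 scale in CA1 (adjusted p = 0.00287), by 0.20 in CA3 (adjusted p = 0.00546) and by 0.32 in the DG (adjusted p = 0.000683). Its receptor gene Cx3cr1 had positive differences in CA1 and CA3 and a negative difference in the DG.
Of the Csf1r ligands, Il34, the form made mainly by neurons, had a called fall in the DG (-0.18 ± 0.07, adjusted p = 0.0294) and on average (-0.12 ± 0.04, adjusted p = 0.0195). Csf1 had 0.06, 0.15 and 0.05 in the 3 subregions, none called (adjusted p from 0.246 to 0.626). Itgb2, the integrin chain that pairs with the product of Itgam, rose in CA3 (0.40, adjusted p = 0.0408; 0.29 without replicate 10, adjusted p = 0.0261) and was at 0.20 in CA1 and 0.02 in the DG, or 0.07 and -0.02 without replicate 10, none of these called.
Over the list of ligands, partners and signalling genes of these receptors, 3 of 22 tested rose and 1 fell in CA1. For CA3 8 rose and 1 fell, and for the DG 5 rose and 2 fell. Of all genes, 12.4%, 10.9% and 18.5% rose and 12.8%, 10.8% and 18.5% fell in the same subregions. Without replicate 10 the counts were 4 and 1, 8 and 1, and 3 and 3. The list median was 0.11, 0.22 and 0.08, and 0.04, 0.15 and 0.07 without that rat. Trem2, a lipid-sensing receptor of microglia, rose on average by 0.38 ± 0.06 (adjusted p = 1.28e-05), Tgfbr1, which receives the TGF-beta signal that maintains the resting state, by 0.28 ± 0.07 (adjusted p = 0.00244), and Entpd1, which degrades extracellular ATP and ADP, by 0.24 ± 0.06 (adjusted p = 0.00263).

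The transcription factors known to set microglial identity had few calls by limma, all of them in the lower direction. Of 15 tested, 0 rose in CA1, CA3, the DG or on average, beside 12.4%, 10.9%, 18.5% and 25.4% of all genes. At an unadjusted p under 0.05 by limma, 0, 1, 0 and 0 were higher. In the same order 1, 0, 3 and 2 fell, beside 12.8%, 10.8%, 18.5% and 24.6% of all genes. These counts were close to or under the shares of all genes and are not read as a fall of the factors as a set. Without replicate 10, 3, 0, 3 and 3 fell. edgeR and DESeq2 each called 1 of them higher in CA3 and 0 in CA1 and the DG. Maf fell on average (-0.21 ± 0.06, adjusted p = 0.00865), as did Nfatc2 (-0.25 ± 0.07, adjusted p = 0.00432), and in bulk RNA neither fall can be assigned to microglia. The median of the 15 factors was -0.08, 0.02 and -0.09 in CA1, CA3 and the DG, and -0.15, -0.04 and -0.11 without replicate 10.
Among other microglial genes, in CA1 15 of 48 tested rose and 1 fell, in CA3 19 and 0 of 47, and in the DG 9 and 3 of 47, with medians of 0.19, 0.29 and 0.06. Of all genes, 12.4%, 10.9% and 18.5% were called higher there, and 12.8%, 10.8% and 18.5% lower. Ctss, a lysosomal protease of microglia, rose on average by 0.45 ± 0.09 (adjusted p = 0.000102), Rgs10, a brake on G-protein signals, by 0.48 ± 0.09 (adjusted p = 0.000103) and Scoc by 0.35 ± 0.05 (adjusted p = 6.06e-06). For DG minus CA3, 43 of 47 differences were negative and 3 were called, beside 2.73% of all genes called in either direction. Those were Gpr183 (-0.67 ± 0.18), Dock8 (-0.35 ± 0.10) and Ifngr1 (-0.27 ± 0.07).
Without replicate 10 the medians of their age differences were 0.11, 0.20 and 0.02 (CA1, CA3 and DG), and the number of other microglial genes called lower went from 3 to 7 in the DG and from 1 to 6 on average, and the number called higher from 19 to 20 on average.

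Of the genes of activated microglia, 2 of 20 rose and 1 fell in CA1, 4 of 20 rose in CA3, and among 18 tested in DG libraries 4 rose and 2 fell. The shares of all genes called higher were 12.4%, 10.9% and 18.5%, and those called lower 12.8%, 10.8% and 18.5%. On average 4 rose and 2 fell, beside 25.4% and 24.6% of all genes, and without replicate 10 6 rose and 3 fell. That rat also moved the CA1 count, to 3 and 2 without it. B2m, the light chain of MHC class I, rose in all 3 subregions (0.39 ± 0.09 on average, adjusted p = 0.000713). Cd74 rose in CA3 (1.83, adjusted p = 0.00339; 1.48 without replicate 10, adjusted p = 0.000136) and was not called in CA1 with that rat (adjusted p = 0.0982), while without it the value was 0.72 (adjusted p = 0.0197). Gpnmb rose in the DG (0.40 ± 0.10, adjusted p = 0.00333) and Lyz2 in the DG (0.27 ± 0.06, adjusted p = 0.00178). The genes called lower by limma were Axl in the DG (-0.25 ± 0.08, adjusted p = 0.0194) and Timp2 in the DG (-0.28 ± 0.09, adjusted p = 0.0182). Timp2 was also the gene that fell in CA1 (-0.21 ± 0.08, adjusted p = 0.0383). On average Timp2 (-0.14 ± 0.05, adjusted p = 0.015) and Cd9 (-0.12 ± 0.05, adjusted p = 0.0416) fell.

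Markers of other cells that carry some of these genes were followed as well. Of 12 genes of perivascular macrophages, 7 had a row. By limma 1 rose among 6 tested in CA1, 1 among 7 tested in CA3 and 2 among 5 tested in DG libraries, or 1 there without replicate 10, and 0 fell, also at an unadjusted p under 0.05 and by edgeR and DESeq2. edgeR called 2 of 6 higher in CA1, beside 2004 of 14685 genes. Of all genes, limma called 12.4%, 10.9% and 18.5% higher and 12.8%, 10.8% and 18.5% lower in CA1, CA3 and the DG. The summed normalized count of the perivascular genes ran from 207 to 356 in young and 258 to 510 in middle-aged CA1, from 214 to 382 and 227 to 543 in CA3, and from 138 to 261 and 187 to 335 in the DG. Colec12, a scavenger receptor, rose on average by 0.38 (adjusted p = 6.2e-05), Lyve1 by 0.37 (adjusted p = 0.0262) and Mrc1, the mannose receptor, by 0.29 (adjusted p = 0.00639). Of 21 genes of blood leukocytes, the tables held rows for Csf3r and Cd3e, and neither was called in any subregion, nor at an unadjusted p under 0.05 by limma (adjusted p from 0.248 to 0.794 by limma; edgeR and DESeq2 called 0 as well). Their sum ran from 228 to 439 in young and 247 to 656 in middle-aged CA1, 88.8 to 143 (young) and 91.6 to 323 (middle-aged) in CA3, and 69.7 to 203 and 61.0 to 215 in DG libraries, and neither gene was at 0 throughout. Replicate 10 held 462 of the perivascular sum in CA1, within the range of the other middle-aged rats, and 656 of the leukocyte sum, above their highest of 400. A sum of 2 genes cannot show whether blood cells were present, in replicate 10 or in the other rats. The part of these cells in the marker differences was not tested.
Among genes of dividing cells, 0 rose by limma, edgeR or DESeq2, with 1 higher in CA3, of 8 tested, and 0 in the other 2 subregions at an unadjusted p under 0.05 by limma. With limma 1 of 6 fell in the DG, where edgeR called 2, beside 18.5% of all genes called lower by limma. The shares of all genes that limma called higher were 12.4%, 10.9% and 18.5% in CA1, CA3 and the DG.

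The markers followed each other only loosely between rats once replicate 10 was set aside. With the mean of each age removed and over the other 27 rats, the median Pearson correlation over the 28 pairs of markers was 0.16, 0.31 and 0.13 for CA1, CA3 and the DG. With that rat the medians were 0.58, 0.52 and 0.18. Tmem119 and Selplg were the closest pair in CA1 (0.82) and Tmem119 and Csf1r in CA3 (0.69) and the DG (0.77), over the 27 rats. Gpr34 and Tmem119 ran opposite in the DG (-0.54). Gpr34 followed the mean of the other markers with r of 0.15, 0.05 and -0.29 (Spearman 0.10, 0.01 and -0.27) in CA1, CA3 and the DG, and Csf1r followed it with 0.51, 0.63 and 0.59 (Spearman 0.53, 0.53 and 0.60). All markers of a library share its size factor, and these values are a description.
Of the genes outside the list, those most like the mean of the 8 markers over all 28 rats, by the smallest of the 3 subregion correlations, were Itgad (0.84), Pld4 (0.81), Itgb2 (0.80), C1qb (0.80), Tmem176a (0.79), Tmem176b (0.79), Npc2 (0.77) and Adgre1 (0.77). Over the 27 rats the smallest correlation was 0.72 for Tmem176b, 0.59 for Itgad, 0.56 for Pld4, 0.51 for C1qb, 0.49 for Npc2, 0.48 for Itgb2, 0.23 for Adgre1 and 0.21 for Tmem176a. Tmem176b was then the closest of all genes, followed by Plekhb1 (0.65), Ctss (0.64), Aebp1 (0.63), Pkp4 (0.63), Csrp1 (0.63), Chi3l1 (0.63) and Dennd5a (0.62). Itgad was at position 12, Pld4 at 18, C1qb at 42, Npc2 at 54 and Itgb2 at 59. Over the 27 rats Adgre1 had 0.23, 0.36 and 0.66 in CA1, CA3 and the DG, and Tmem176a 0.21, 0.72 and 0.72. The place of Tmem176a thus rested on replicate 10 through CA1, and that of Adgre1 through CA1 and CA3.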

How the data were processed

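The authors deposited 1 table of normalized counts per subregion, a signal that is each gene's read count divided by 1 size factor per library. Per the submitters' processing notes, STAR 2.5.3a, Partek, DESeq2 3.5 and rn6 were used. For annotation and strand, settings were not given in the sources used here. Values up to 1000 reads came out as whole reads within 0.1 in 100% of cases. The heading of 1 CA3 column holds just an animal number, and it was taken as that animal. No 2 libraries were identical.

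Genes reaching 10 in 12 or more of 28 libraries (14685 in CA1, 14893 in CA3, 14526 in the DG, 14291 for the average) were tested on log2(value + 1) with limma 3.58.1 (trend, 2-sided) in R 4.3.3, adjusted by Benjamini-Hochberg, threshold 0.05. Fold changes on this scale understate changes of low genes. Differences between subregions were taken within rats, paired by the animal number in the titles. edgeR 4.0.16 and DESeq2 1.42.0 on the recovered reads were alternatives (edgeR called 2004, 1659 and 2649 genes higher and 1849, 1586 and 2819 lower in CA1, CA3 and the DG), and the fit was tested on simulated data. The members and lists were chosen with earlier results of these data known. Named genes are the members, up to 4 genes per list with the smallest p on average, Cx3cl1, Csf1, Il34 and Itgb2. The 8 genes most like the members, with and without replicate 10, are named too, and some but not all others where a count was 5 or fewer. A gene that this rule names is not reported here. Leaving replicate 10 out of lists and correlations, testing the difference between runs and setting markers against other microglial genes were chosen after seeing the data. p-values measure the spread between rats.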

Additional observations from a re-analysis of the deposited data

Results flagged for a closer look

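The age difference of Tmem119 differed between subregions within rats: the log2 fold change from 5 to 12 months, DG minus CA3, was -0.39 (SE 0.10, limma, adjusted p = 0.0323, 28 rats). The levels in both subregions are given above with the rats on which the call depends.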

How the results depend on the processing

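Of 2439 combinations of a result and an alternative, 2370 were counted as the same, and none of the called values changed sign. For a marker, the same means that its call was kept, whatever the sign of an uncalled value. For a count of markers, it means an equal or similar count. Csf1r in CA1, which was not called, went from 0.10 to -0.11 in the second run alone and was counted as the same. In the first run alone, the number of markers called higher was 0 in CA1, 0 in CA3, 0 in the DG and 1 on average, and in the second run alone it was 1 in CA1. For DG minus CA3, the first run called 0 markers and the second 4 (Tmem119, Cx3cr1, Csf1r and Selplg). Without the replicate block, which ignores that a rat gave 3 libraries, it called 0, and leaving out each rat in turn gave 0 to 3. The runs hold fewer rats, the ages of the second run fall in separate blocks of numbers, and the cause of the differences was not tested. The CA1 call of Aif1 was also lost with quantile normalization (adjusted p = 0.0552) and robust moderation (adjusted p = 0.055), and that of P2ry12 with array weights (adjusted p = 0.0565), where Tmem119 in CA1 was gained (adjusted p = 0.0285). Other pseudocounts, filters and scalings, a term for the run, edgeR and DESeq2 kept the count of markers called higher within 1 of 3, 5, 2 and 4 in CA1, CA3, the DG and on average. Gpr34 and Siglec5 were the markers with the fewest reads, from 48 per library.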
